A study of Mus musculus with 12 samples.

Results

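Astrocytes clear glutamate from synapses, buffer water and ions, and are joined to one another through gap junctions. The genes for these tasks, with a few that define the cell type, serve as its identity genes. Dissociated cortical neuron cultures usually keep some astrocytes, so such genes can be read in RNA of the whole culture. The 10 genes described here were given as a fixed list of homeostatic astrocyte genes: Slc1a2, Slc1a3, Glul, Gja1, Gjb6, Aqp4, Sox9, Aldh1l1, S100b and Ntsr2. All 10 had a row among the 43629 gene identifiers of the deposited table, and 8 of them had enough counts to be tested. The question put to them was whether they moved with interferon-gamma by one common factor.

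The study exposed mouse cortical neuronal cultures to lasting interferon-gamma through a lentivirus that overexpresses Ifng. There were 6 IFNG libraries, labelled with IFNy as their treatment, and 6 Control libraries, all of poly(A) RNA. The protocol text, shared by all 12, places transduction at 7 days in vitro and harvest after 10 further days. No strain, age of animals or control vector is named in the labels used here, and the labels do not tie a sample to an animal or a culture. Library totals ran from 13875435 to 34239380 counts in IFNG and from 14408343 to 20299507 counts in Control. Ifng itself was read at 4.98 to 17.9 CPM, counts scaled to library size, in the IFNG libraries and at 0 to 0.17 CPM in the Control libraries. All 24 neuronal markers on the list used here had enough counts to be tested, and the share of mitochondrial counts was 3.53 to 5.59% in IFNG and 3.39 to 5.72% in Control. In RNA of a whole culture, a larger number of astrocytes and more RNA per astrocyte cannot be told apart.

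The members rose together, but not by one factor. All 8 tested members were higher in IFNG, where 14.3% of the 15241 genes tested were called higher, 9.79% were called lower and 24.1% were called in either direction. The glutamate transporter gene Slc1a3, the folate enzyme gene Aldh1l1 and the transcription factor gene Sox9 rose between 2.21-fold and 3.14-fold. The gap junction gene Gja1 and the second transporter gene Slc1a2 rose 1.66-fold and 1.5-fold. Glul, Aqp4 and Ntsr2 rose by between 1.31-fold and 1.37-fold. Gjb6 and S100b were near the detection limit in both groups and were not tested. Median log2 fold changes were 0.66 over the 8 members and -0.02 over all genes tested. Scaling to totals without the genes called higher moved these medians to 0.77 and 0.10, and the share of calls that were higher to 79.8%, against 59.4% in the fit used here. Against a threshold of 1.2-fold, 5 of the 8 passed and Glul, Aqp4 and Ntsr2 did not, where 9.8% of all genes were called higher by that rule.

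**Figure D1:**
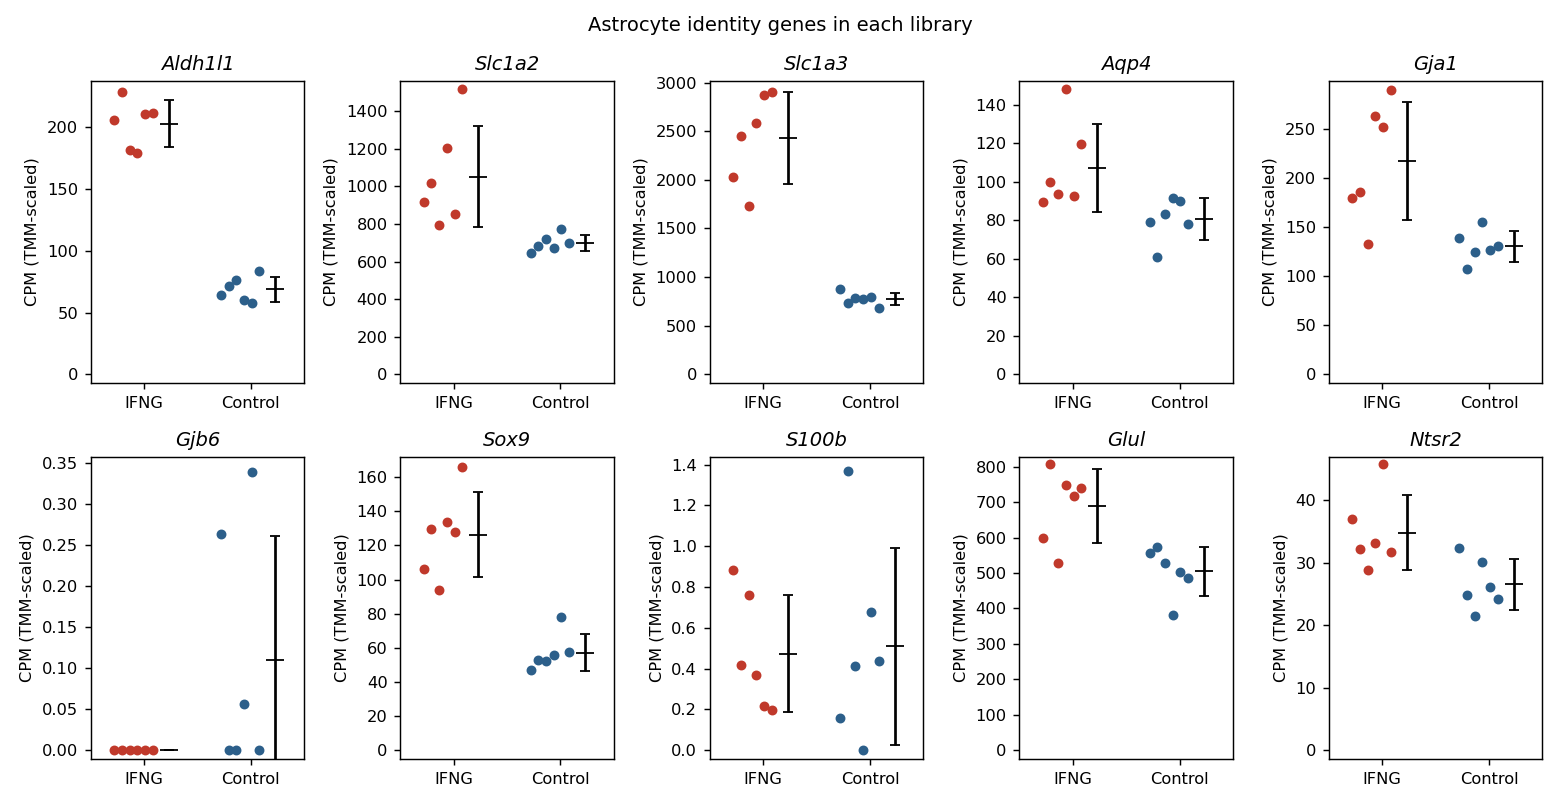
CPM on scaled library totals (y axis, linear, a separate scale for each gene) of the 10 genes in the 6 IFNG and 6 Control libraries; each point is a library, and the black mark and bar are the mean and SD. IFNG and Control do not overlap for Aldh1l1, Slc1a2, Slc1a3 and Sox9, overlap for Aqp4, Gja1, Glul and Ntsr2, and lie near 0 for Gjb6 and S100b. How many of all genes do not overlap is not given here.

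Upstream sequence is shown for the 2 genes with the largest rise, Slc1a3 and Aldh1l1, and for Slc1a2, the sister gene of Slc1a3 that rose less. RefSeq starts on GRCm38.p6 were given for 8 of the 10 genes. The windows are the 250 bases before each start, written 5′ to 3′ on the gene's strand, and they cover chr15:8710808-8711057 (minus strand) for Slc1a3, chr6:90550543-90550792 (plus strand) for Aldh1l1 and chr2:102706188-102706437 (plus strand) for Slc1a2. Capitals mark a match to TTCNNNGAA, the gamma-activated sequence known from interferon-gamma target genes.
Slc1a3: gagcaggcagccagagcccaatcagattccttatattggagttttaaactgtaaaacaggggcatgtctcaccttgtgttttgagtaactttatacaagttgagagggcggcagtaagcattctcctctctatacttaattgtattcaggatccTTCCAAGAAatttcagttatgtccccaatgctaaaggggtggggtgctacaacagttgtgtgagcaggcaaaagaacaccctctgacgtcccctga
Aldh1l1: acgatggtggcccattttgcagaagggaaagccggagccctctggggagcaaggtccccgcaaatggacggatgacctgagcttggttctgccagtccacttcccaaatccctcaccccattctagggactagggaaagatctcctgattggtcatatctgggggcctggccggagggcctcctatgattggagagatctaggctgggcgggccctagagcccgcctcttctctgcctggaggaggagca
Slc1a2: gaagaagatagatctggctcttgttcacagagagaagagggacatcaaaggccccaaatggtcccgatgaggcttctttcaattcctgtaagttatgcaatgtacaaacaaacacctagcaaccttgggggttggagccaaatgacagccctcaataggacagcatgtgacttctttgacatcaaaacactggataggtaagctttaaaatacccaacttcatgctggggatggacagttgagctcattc
Of these windows, 4 bases for Aldh1l1 and 29 bases for Slc1a2 overlap annotated exons. The windows of Aldh1l1 and Slc1a2 lie inside the annotated genes, which begin at 90486427 and 102658659, while that of Slc1a3 lies outside its gene. Bases upstream of those 2 gene starts were not searched, so the windows are not alike between the genes. The search covered both strands. Slc1a3 held 1 match, which begins 96 bases before the start, and Aldh1l1 and Slc1a2 held none. Of all 32851 RefSeq windows of this length, 7.02% held a match. Among the other members, Ntsr2 held 1 match and Gja1, Gjb6, S100b and Glul held none. A match of letters is a description of the sequence and not a binding site.

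Slc1a3 and Slc1a2 encode the main astrocytic glutamate transporters. Slc1a3, known as GLAST (ENSMUSG00000005360, GRCm38 chromosome 15, 8634124 to 8710764, minus strand), is prominent in progenitor-like and young astrocytes. It stood at 1729 at the lowest, 2519.9 at the median and 2905 CPM at the highest in IFNG libraries, against 687, 777 and 874 CPM in Control libraries. Every IFNG library lay above every Control library, and the change was 1.65 ± 0.117 on the log2 scale (SE; adjusted p = 1.06e-09). Slc1a2 (ENSMUSG00000005089, chromosome 2, 102658659 to 102790784, plus strand) is the transporter that dominates in the mature forebrain. Its lowest, median and highest levels were 797, 968 and 1517 CPM in IFNG libraries, against 645, 691 and 774 CPM in Control libraries. Annotated exons of the predicted gene Gm13872 on the other strand overlap those of Slc1a2. The groups again did not overlap, with IFNG 6 the highest library, and the log2 change was 0.59 ± 0.128 (adjusted p = 0.00187).

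Within a library, where scaling cancels, both transporters can be set against each other as a description. Slc1a3 counts per Slc1a2 count were 2.21, 2.41, 2.17, 2.14, 3.36 and 1.92 in IFNG 1 to IFNG 6, against 1.36, 1.08, 1.08, 1.15, 1.02 and 0.983 in Control 1 to Control 6. The lowest IFNG ratio exceeded the highest Control ratio. The mean log2 ratio corresponds to 2.11-fold more in IFNG. The pair was chosen after the values of both genes were seen, so no test is attached.

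Glul (ENSMUSG00000026473, chromosome 1, 153899944 to 153909723, plus strand) encodes glutamine synthetase, which turns the glutamate taken up into glutamine. It stood at 528, 728 and 807 CPM (lowest, median and highest) in IFNG libraries, against 381, 516 and 573 CPM in Control libraries. IFNG 3 lay within the Control range, and the change was 0.45 ± 0.113 (adjusted p = 0.00594). Annotated exons of the genes Mir8114 and Teddm2 overlap those of Glul, and the strand setting of the counting is not given in the sources used here.

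Of 17 genes listed for glutamate and GABA uptake and the glutamine cycle, 16 were tested, 3 rose and 2 fell, and the log2 changes had a median of -0.04. These counts lie near the shares of all genes, 14.3% higher and 9.79% lower, and the count that fell was 1 without Control 6 and 4 on library totals. Those that rose were Slc25a18, a mitochondrial glutamate carrier, at 1.53 ± 0.126 (adjusted p = 1.04e-08), Glud1, glutamate dehydrogenase, at 0.84 ± 0.0867 (adjusted p = 3.01e-07), and Slc38a3, a glutamine transporter of astrocytes, at 0.78 ± 0.17 (adjusted p = 0.00187). Among those that fell was Slc1a5, a neutral amino acid transporter, at -0.91 ± 0.263 (adjusted p = 0.0152). The neuronal glutamate transporter gene Slc1a1 stood at -0.20 ± 0.0793 (adjusted p = 0.0714). The astrocytic GABA transporter gene Slc6a11 had 277 ± 37.7 CPM in IFNG and 329.9 ± 36.5 CPM in Control (SD, n = 6 each; adjusted p = 0.0773).

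Gja1 and Gjb6 encode the main connexins of astrocyte gap junctions, and only Gja1 was expressed at a testable level. Gja1 (ENSMUSG00000050953, chromosome 10, 56377330 to 56402513, plus strand) stood at 133, 219 and 289.8 CPM (lowest, median and highest) in IFNG libraries, against 107, 129 and 155 CPM in Control libraries. IFNG 3 lay inside the Control range and the other 5 IFNG libraries above it, with a log2 change of 0.74 ± 0.15 (adjusted p = 0.00109). Gjb6 (ENSMUSG00000040055, chromosome 14, 57123303 to 57133611, minus strand), typical of mature astrocytes, had 0 counts in all IFNG libraries and 12 counts in Control libraries. These counts were 5 in Control 1, 1 in Control 4 and 6 in Control 5, with 0 in the other 3 Control libraries. A count of 0 over the IFNG libraries allows up to 0.0242 CPM (3 counts over the group), and without a filter on low counts Gjb6 did not pass (adjusted p = 0.0781).

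Other connexin and pannexin genes moved in both directions. Of 13 listed, 8 were tested, 3 rose and 1 fell. Their log2 changes centred on a median of 0.22. Gjb2, a partner of Gjb6 in astrocytes and meninges, averaged 2.05 ± 0.799 CPM in IFNG and, in Control, 0.39 ± 0.292 CPM (SD, n = 6 each; log2 change 2.39 ± 0.535, adjusted p = 0.00239). Gja4, best known from endothelium, changed by 1.69 ± 0.358 (adjusted p = 0.00149) and Gjc1 by 0.66 ± 0.159 (adjusted p = 0.00412). Gjd2, the connexin of neuronal electrical synapses, fell by 0.69 on the log2 scale (SE 0.137, adjusted p = 0.000804). Panx1 was the most abundant of those that did not pass, averaging 71.6 ± 5.16 CPM in IFNG and, in Control, 79 ± 6.9 CPM (SD, n = 6 each).

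Aqp4 (ENSMUSG00000024411, chromosome 18, 15389496 to 15410982, minus strand) encodes the water channel of astrocyte endfeet. Its lowest, median and highest levels were 89.3, 96.7 and 148 CPM in IFNG libraries, against 61.2, 81.2 and 91.7 CPM in Control libraries. The lowest IFNG library lay within the Control range, and the log2 change of 0.41 ± 0.126 passed narrowly (adjusted p = 0.0214). It no longer passed without IFNG 4 or without Control 2, at 0.30 and 0.34 (adjusted p = 0.062 and 0.0579). Genes that anchor Aqp4 or act beside it rose by more in several cases. Of 17 genes listed for water and ion homeostasis and aquaporin anchoring, 16 were tested and 11 rose, none fell, and the median log2 fold change was 0.76. Kcnj10, the inward rectifier potassium channel of astrocytes, averaged 263 ± 85.9 CPM in IFNG and, in Control, 81.4 ± 8.33 CPM (SD, n = 6 each; log2 change 1.69 ± 0.169, adjusted p = 1.9e-07). Of the dystrophin complex, which holds Aqp4 at endfeet, Dmd changed by 1.07 ± 0.109, Dag1 by 0.84 ± 0.107 and Dtna by 0.78 ± 0.131, with adjusted p between 2.41e-07 and 0.000154. Hepacam, an adhesion molecule that binds the membrane protein MLC1, rose by 1.23 ± 0.126 (adjusted p = 2.99e-07). Slc12a2, a chloride importer, stood at -0.15 ± 0.116 and did not pass.

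Sox9 (ENSMUSG00000000567, chromosome 11, 112782224 to 112787760, plus strand) encodes the transcription factor that starts gliogenesis and stays on in astrocytes. It stood at 94.1, 129 and 166 CPM (lowest, median and highest) in IFNG libraries, against 47.1, 54.4 and 77.8 CPM in Control libraries. The groups did not overlap, and the log2 change was 1.14 ± 0.134 (adjusted p = 1.83e-06). Of 22 other glial transcription factor genes, all tested, 10 rose and Zic1 fell, by 0.61 on the log2 scale (adjusted p = 0.0364). The call of Zic1 was lost in 11 of 21 alternatives, among them limma-voom, no filter, and without any one of IFNG 1, IFNG 4, IFNG 5, IFNG 6, Control 1, Control 2 or Control 3. The median log2 fold change of the 22 was 0.48. Sox2 rose by 1.05 ± 0.133, Id4 by 1.29 ± 0.151 and the Hedgehog effector gene Gli2 by 1.45 ± 0.186. Nfia, which acts with Sox9 in gliogenesis, rose by 0.98 ± 0.14 (adjusted p = 2.22e-05), while its relatives Nfib and Nfix stood at 0.18 ± 0.103 and 0.16 ± 0.105. Of the SOX genes closest to Sox9, Sox8 rose by 0.64 ± 0.17 (adjusted p = 0.00889) and Sox10, a gene of the oligodendrocyte lineage, stood at 0.32 ± 0.204 (adjusted p = 0.274). Zbtb20 and Id3, 2 of the larger changes in the list, varied widely between IFNG libraries, with 131 ± 76.2 and 2.34 ± 2.24 CPM (SD, n = 6).

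Aldh1l1 (ENSMUSG00000030088, chromosome 6, 90486427 to 90600203, plus strand) encodes a folate enzyme and is the usual pan-astrocyte marker. Its lowest, median and highest levels were 179, 209 and 229 CPM in IFNG libraries, against 57.5, 67.9 and 83.9 CPM in Control libraries. The groups lay far apart, and the change of 1.56 ± 0.104 had the smallest p of the members (adjusted p = 3.63e-10). Exons of the predicted genes Gm15756 and Gm45901 overlap those of Aldh1l1. Of 12 other folate one-carbon enzymes listed, 11 were tested, 1 rose and 1 fell, near the shares of all genes. The count that fell was 2 in 9 of 21 alternatives, among them without any one of IFNG 5, IFNG 6, Control 1 or Control 3. Over the tested genes the median log2 change was -0.19. Mthfd1, the cytosolic trifunctional enzyme, rose by 0.44 ± 0.119 (adjusted p = 0.0105). Aldh1l2, the mitochondrial counterpart of Aldh1l1, fell to 16.9 ± 2.85 CPM in IFNG, against 35.4 ± 12.2 CPM in Control (SD, n = 6 each; log2 change -1.07 ± 0.191, adjusted p = 0.00029). Shmt2 stood at -0.38 ± 0.139 and did not pass.

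S100b (ENSMUSG00000033208, chromosome 10, 76253853 to 76261159, plus strand), a calcium-binding protein of mature astrocytes, was barely read. It had 55 counts over the IFNG libraries and 55 over the Control libraries, with 0.196 to 0.883 CPM in IFNG and 0 to 1.37 CPM in Control. Without a filter on low counts its log2 change was -0.08 ± 0.789 (adjusted p = 0.966). In the list of 11 other S100 family and partner genes, 7 were tested, 3 rose and none fell, and the log2 changes had a median of 0.32. S100a6 rose by 1.8 ± 0.3, S100a11 by 1.5 ± 0.217 and S100a16 by 0.84 ± 0.114, with S100a6 averaging 4.92 ± 1.76 CPM in IFNG and, in Control, 1.41 ± 0.486 CPM (SD, n = 6 each). S100pbp, which encodes a binding partner and not an S100 protein, stood at -0.09 ± 0.106.

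Ntsr2 (ENSMUSG00000020591, chromosome 12, 16653382 to 16660227, plus strand) encodes a neurotensin receptor found mainly on astrocytes. Its lowest, median and highest levels were 28.8, 32.6 and 45.7 CPM in IFNG libraries, against 21.4, 25.4 and 32.4 CPM in Control libraries. The groups overlapped, IFNG 5 was the highest library, and the log2 change of 0.39 ± 0.128 was the smallest of the 8 (adjusted p = 0.0316). That call was lost without any one of IFNG 1, IFNG 5, Control 2, Control 3 or Control 6 (adjusted p = 0.059 to 0.0809) and on library totals with no composition factor (adjusted p = 0.0512). Of 4 other genes of the neurotensin system, all tested, Nts rose and none fell, but 1 fell in 8 of 21 alternatives, among them without any one of IFNG 5, Control 2, Control 3 or Control 4. Their log2 changes centred on a median of 0.00. Nts, the peptide precursor, changed by 1.87 ± 0.298 (adjusted p = 8.5e-05), averaging 4.22 ± 1.27 CPM in IFNG and, in Control, 1.15 ± 0.326 CPM (SD, n = 6 each). The neuronal receptor gene Ntsr1 stood at -0.29 ± 0.107 (adjusted p = 0.0531). The sorting receptor genes Sort1 and Sorl1 stood at -0.13 ± 0.0893 and 0.13 ± 0.143.

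Whether the 8 tested members shared one factor was tested on their levels relative to one another. In each library the mean log2 CPM of the 8 was subtracted from each member, which removes any common factor and any library scaling. The mean itself was 8.10 ± 0.218 in IFNG and 7.25 ± 0.0505 in Control (SD, n = 6 each), a difference of 0.85 or 1.8-fold. Around that common difference, the members departed by a root mean square of 0.486 on the log2 scale. Over all arrangements of the labels, an exact permutation test of this departure had p = 0.00216, which is the lowest value possible. With each member left out in turn the departure was 0.414 to 0.516, with the same p at its lowest possible value each time.

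Aldh1l1 and Slc1a3 departed upward and Glul, Aqp4 and Ntsr2 downward. Each library was centred on the mean of the tested members, so upward and downward departures balance by construction. The downward ones are therefore not separate findings. Glul, Aqp4 and Ntsr2 rose against Control, but by less than the mean. Relative to its library's mean, Slc1a3 stood at 3.01 to 3.30 in IFNG and 2.18 to 2.49 in Control, on the log2 scale. Aldh1l1 stood at -0.76 to -0.24 in IFNG and -1.47 to -0.85 in Control. Groups did not overlap for these 2 members, and they overlapped for the other 6. The share of all genes without overlap is not given here, so these counts are a description only. Glul, for example, stood at 1.18 to 1.54 in IFNG and at 1.32 or above in every Control library.

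**Figure D2:**
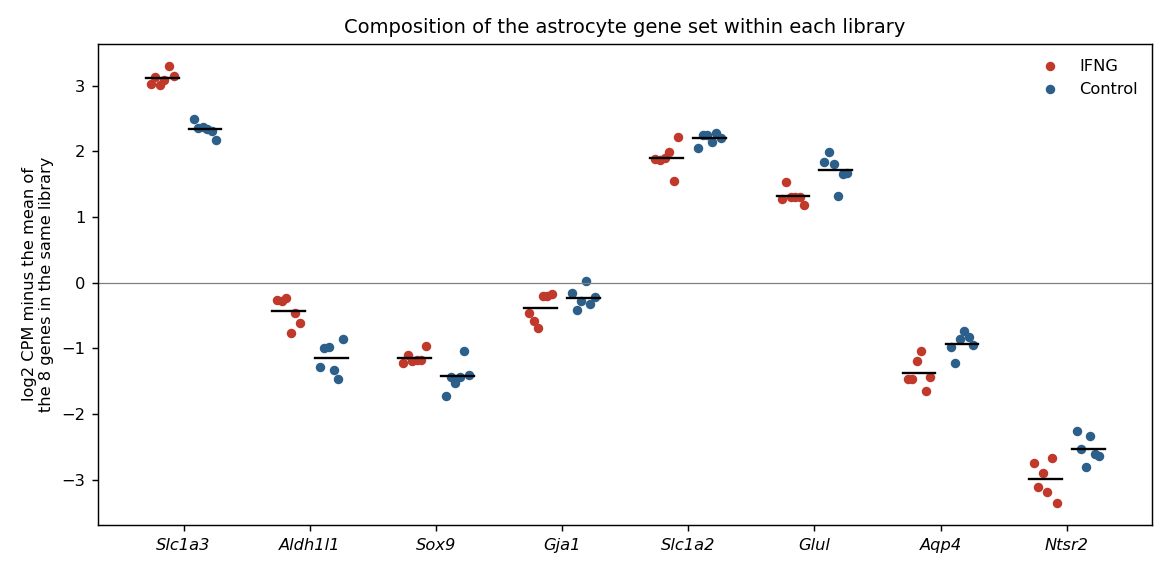
Level of each of the 8 tested genes in each library as log2 CPM minus the mean of the 8 in that library (y axis); each point is 1 of 6 IFNG or 6 Control libraries and black lines are group means. Under one common factor the IFNG and Control points of a gene would lie at the same height; Slc1a3 and Aldh1l1 lie higher in IFNG without overlap, while Glul, Aqp4 and Ntsr2 lie lower with some overlap.

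Each member was also set against the mean of the other 7, with edgeR fitted to the whole table once per member and p-values adjusted over all genes. Since all genes are then scaled to genes that rose, 79.4 to 84.7% of the table is called in such a fit, nearly all of it as lower, and the adjusted p lies close to the unadjusted one. Of the 8 members 7 passed, a share near that of all genes, so the count says nothing particular about them. The 3 called higher stand beside 4.86 to 5.24% of genes called higher, and the 4 called lower beside 79.8 to 80.3% called lower. Slc1a3 was 1.85-fold higher than the others' change (log2 0.89 ± 0.112, adjusted p = 2.64e-07, in a fit that called 79.7% of genes, 5.24% as higher). Aldh1l1 was 1.75-fold higher (log2 0.81 ± 0.154, adjusted p = 3.55e-05, 79.4% of genes called, 5.12% as higher). With the median of the other members in place of their mean, Slc1a3 departed by 0.5 and Aldh1l1 by 0.89 (adjusted p = 0.000763 and 0.00125). That median is the count of the gene of middle abundance in each library, which can differ between the groups. For Slc1a3 it was Gja1 in IFNG 1 but Aqp4 in Control 1. No departure from a median change, and no order of Slc1a3 and Aldh1l1, can therefore be read from it. Against the mean again, Sox9 was 1.24-fold higher (log2 0.31 ± 0.133, adjusted p = 0.0331, 81.9% of genes called, 4.86% as higher). It did not pass in 9 of 17 alternatives: with no filter, with the median of the others, and without any one of IFNG 2, IFNG 6, Control 1, Control 2, Control 3, Control 4 or Control 6 (adjusted p = 0.0505 to 0.126).

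The 4 lower members departed by between -0.33 and -0.52. Their reference includes Slc1a3 and Aldh1l1, whose larger rises lift it, so these departures are not independent of the upward ones. All 4 were higher in IFNG than in Control. Ntsr2 departed by -0.52 ± 0.161 (adjusted p = 0.00375, 84.5% of genes called, 80.1% as lower) and Aqp4 by -0.51 ± 0.141 (adjusted p = 0.00174, 84.7% of genes called, 80.3% as lower). Glul departed by -0.48 ± 0.132 (adjusted p = 0.00175, 84.5% of genes called, 80.1% as lower) and Slc1a2 by -0.33 ± 0.123 (adjusted p = 0.0176, 84.3% of genes called, 79.8% as lower). Slc1a2 no longer passed with no filter on low counts (adjusted p = 0.0612). Gja1 did not depart detectably from the others, at -0.17 ± 0.131 (adjusted p = 0.223, 83.9% of genes called, 79.3% as lower). It passed as lower, at -0.55, when the median of the other members replaced their mean (adjusted p = 0.00151). The gene of middle abundance was then Aldh1l1 in IFNG 1 but Aqp4 in Control 1. That call therefore sets Gja1 against different genes in the groups and does not show a lag behind the members.

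**Figure D3:**
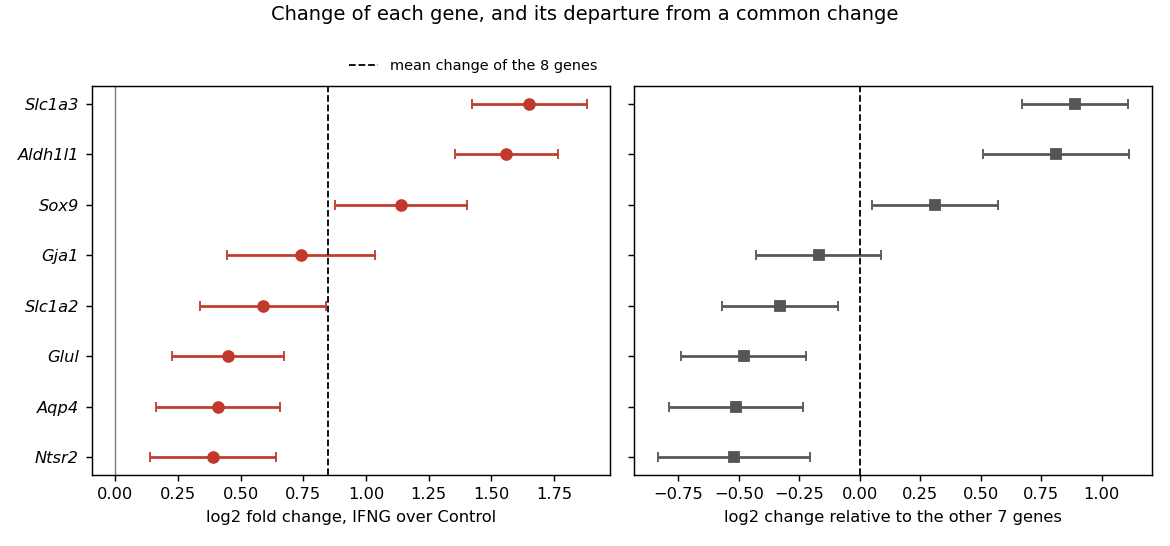
Left, log2 fold change of IFNG over Control for the 8 tested genes, with the mean change of the 8 as a dashed line; right, the log2 change of each gene relative to the other 7. Points are fitted values and bars are 95% intervals from the SE; Slc1a3, Aldh1l1 and Sox9 lie above the common change and Slc1a2, Glul, Aqp4 and Ntsr2 below it.

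The make-up of the member pool differed between the groups. Slc1a3 supplied 49.9 ± 2.8% of the counts of the 10 genes in IFNG and 33 ± 1.96% in Control (SD, n = 6 each). Slc1a2 supplied 21.6 ± 2.94% in IFNG and 29.9 ± 1.82% in Control, and Glul 14.3 ± 1.28% in IFNG and 21.5 ± 2.56% in Control. The pool as a whole averaged 4860.3 ± 857 CPM in IFNG and, in Control, 2342 ± 98.5 CPM, 2.08-fold higher in IFNG.

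Levels of different genes were compared per kilobase of annotated exon. In IFNG, Slc1a3 was the highest member, at 285 ± 55 CPM per kb, ahead of Glul at 208 ± 31.5 CPM per kb, although their libraries overlapped (SD, n = 6 each). In Control the order was the other way round, with Glul at 152 ± 20.7 CPM per kb and Slc1a3 at 90.7 ± 7.3 CPM per kb, without overlap. Slc1a2 came next in both groups, at 80.1 ± 20.5 CPM per kb in IFNG and 53.3 ± 3.42 CPM per kb in Control. Aldh1l1 followed, at 45 ± 4.29 CPM per kb in IFNG and 15.3 ± 2.26 CPM per kb in Control. In IFNG, Aldh1l1 stood clear of Gja1 and Aqp4, at 39.7 CPM per kb or more against at most 28.3 and 23.8 CPM per kb, but it overlapped Sox9, which reached 40.3 CPM per kb. In Control, Aldh1l1, Sox9, Aqp4 and Gja1 lay between 12.7 and 15.3 CPM per kb on average and overlapped one another. Ntsr2 was lower again, at 11.1 ± 1.92 CPM per kb in IFNG and 8.5 ± 1.3 CPM per kb in Control, and S100b and Gjb6 lay below 1 CPM per kb in every library.

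IFNG libraries differed among themselves more than Control libraries did. Mean log2 CPM of the tested members ran from 7.74 in IFNG 3 to 8.35 in IFNG 6, while Control libraries stayed between 7.16 and 7.32. IFNG 3 also had the lowest Ifng level, at 4.98 CPM, but IFNG 5, with the highest Ifng level of 17.9 CPM, was not the highest in the members. Deviations from the group mean were followed over the 12 libraries as a description. Slc1a3, Gja1, Sox9 and Slc1a2 deviated together with the mean of the other members (Pearson r of 0.872, 0.858, 0.687 and 0.681), Aqp4 and Glul less so (0.461 and 0.451). Ntsr2 and Aldh1l1 did not follow the others (0.0781 and -0.0601). Genes outside the list whose deviations were most like the members' mean, with r from 0.911 to 0.949 over the same libraries, were Kcnj10, Soat1, Plpp3, Per3, Yap1, Myo10, Pou3f2, Zfp521, Sfrp1 and Glud1. The mean of the members varied more in IFNG than in Control (SD 0.218 and 0.0505), so the IFNG libraries weigh most in these r values. Libraries share their depth and preparation, and no p was attached to these values.

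Among 40 further astrocyte genes, 39 were tested, 26 rose and none fell (1 fell without IFNG 6 and on library totals); the median change was 1.07 on the log2 scale, with a range from -0.82 to 3.42. Aldoc, an astrocytic glycolytic enzyme, rose by 1.73 ± 0.129 (adjusted p = 2.09e-09). Ndrg2 rose by 1.33 ± 0.0941 and Sparcl1, a secreted synapse-promoting protein, by 1.3 ± 0.0933. Ttyh1 was the most abundant that did not pass, averaging 407 ± 91 CPM in IFNG and, in Control, 321 ± 29 CPM (SD, n = 6 each; adjusted p = 0.0505). Cyp4f14 showed the largest change of the list, chosen after its value was seen, averaging 33.8 ± 14.2 CPM in IFNG and, in Control, 3.15 ± 0.714 CPM (SD, n = 6 each). Slc14a1, a urea transporter of astrocytes, was too low to test. Of 38 genes listed for reactive astrocytes, 29 were tested, 18 rose and Ptgs2 fell, while 2 fell with no filter and without Control 5 or any one IFNG library. Over the tested genes the median log2 change was 1.68. That list includes interferon targets such as Iigp1, Serping1 and H2-D1, which rose by 8.76, 10.21 and 5.99, while the filament genes Gfap and Vim rose by 1.68 ± 0.143 and 1.77 ± 0.127. Fkbp5 was the most abundant of those that did not pass, at -0.29 ± 0.12. All 24 listed interferon response genes rose, and the log2 changes had a median of 7.18. The smallest change among them was 2.26, above that of every tested member. Irf1, Irf8 and Gbp7 of that list rose by 5.96, 7.30 and 7.37.

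**Figure D4:**
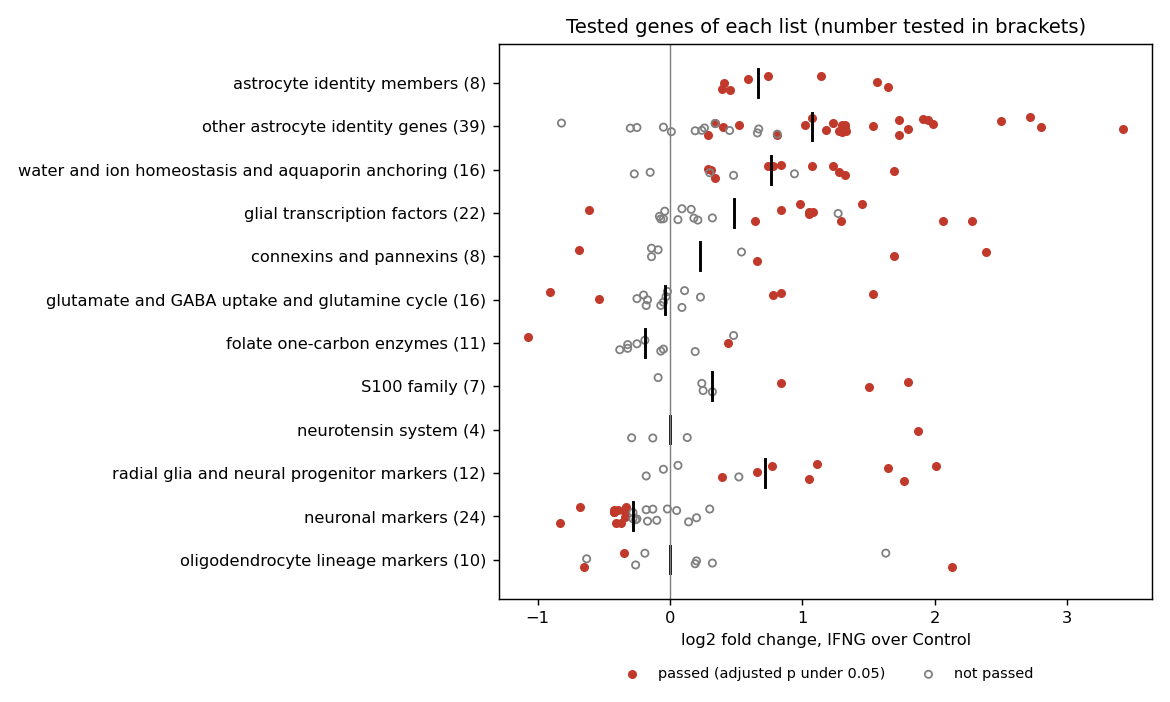
Log2 fold change of IFNG over Control (x axis) for the tested genes of 12 lists; each point is a gene, filled where it passed and open where it did not, and black ticks are list medians. The 8 members and the other astrocyte genes lie above 0 for the most part, with medians of 0.66 and 1.07, while neuronal markers have a median of -0.28; a gene can stand in more than one list.

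Markers of other cells moved as follows in the same libraries, and their part in the members' rise was not tested. Of 12 radial glia and progenitor markers, a list that includes Slc1a3, 8 rose and none fell. Their log2 changes centred on a median of 0.72. Notch1 rose by 2.01 ± 0.178. Of 24 neuronal markers, none rose with TMM scaling and 11 fell, with a median of -0.28, among them Dcx, Gad1 and Ina by 0.83, 0.68 and 0.42 on the log2 scale. Map2 averaged 1294 ± 255 CPM in IFNG and, in Control, 1575 ± 195 CPM (SD, n = 6 each) and did not pass. The summed level of the neuronal list was 7458 to 9109 CPM in IFNG and 9454 to 10326 CPM in Control. The count of 11 became 7 without any one of IFNG 2, IFNG 6 or Control 4, and 6 on totals without the genes called higher. In that last setting 2 neuronal markers rose, and 1 rose without Control 2. The radial glia and progenitor list summed to 2960.2 to 4783 CPM in IFNG and 1419 to 1592 CPM in Control. The member Slc1a3 made up much of that sum, with 2429 of a mean 4023 CPM in IFNG and 774 of a mean 1516 CPM in Control.

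Of 17 markers of dividing cells, all tested, Mcm6 and Hmgb2 rose and Pcna and Mki67 fell, with a median of -0.26 and Top2a at 0.12 ± 0.167. Their summed level ran from 245 to 298 CPM in IFNG and from 219 to 357 CPM in Control. The count that fell was 1 without any one of IFNG 2, Control 2, Control 3 or Control 5 and 0 on totals without the genes called higher, and the count that rose was 1 without IFNG 4. In the oligodendrocyte lineage, 10 of 13 markers were tested and Cnp rose, by 2.13, while Pdgfra and Olig2 fell, by 0.65 and 0.35 on the log2 scale, with a median of 0.00 and Olig1 at -0.19 ± 0.0949. Their summed level was 319 to 363 CPM in IFNG and 299 to 404 CPM in Control, and the count that fell was 1 without IFNG 2. Of 20 microglial and macrophage markers 5 were tested, and P2ry12 and Sall1 rose, with P2ry12 averaging 0.965 ± 0.42 CPM in IFNG and, in Control, 0.0719 ± 0.154 CPM (SD, n = 6 each). The 5 had a median log2 change of 0.43. The 20 summed to 45.3 to 60.1 CPM in IFNG and 34.3 to 42 CPM in Control. Of 11 endothelial markers 3 were tested and Ly6c1 rose, to 2.44 ± 0.759 CPM in IFNG, against 0.00807 ± 0.0198 CPM in Control (SD, n = 6 each), with a median of 0.47. The 11 summed to 6.77 to 12 CPM in IFNG and 4.86 to 8.76 CPM in Control. Pecam1 and Ocln stood at -0.43 ± 0.46 and 0.47 ± 0.243, and Cldn5, which defines endothelial cells of the brain, had 0 counts in all libraries. Of 13 fibroblast and mural markers 8 were tested and Pdgfrb, Fn1, Igf2 and Fbln1 rose, with a median of 0.52 and Dcn at -0.01 ± 0.154. The 13 summed to 136 to 184 CPM in IFNG and 99.4 to 123 CPM in Control. Of 11 ependymal and choroid plexus markers 5 were tested, and Foxj1 and Rarres2 rose, with a median of -0.23, Dnah5 at -0.33 ± 0.229 and Folr1 at -1.02 ± 0.462. The 11 summed to 20 to 45.5 CPM in IFNG and 15.4 to 20.8 CPM in Control, and Tmem212 had 0 counts in all libraries. The count that rose was 1 without any one of IFNG 1, IFNG 2, IFNG 6, Control 1 or Control 6.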

How the data were processed

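RNA of 6 IFNG and 6 Control samples was analysed. The authors deposited raw counts per gene, whole numbers with a column for each sample, not normalized, per the file headers and values. The submitters' processing notes name STAR 2.4 and DESeq2 and the builds GRCm39 and mm10, with no role for any of them. How reads were counted, with which annotation and with what strand setting, is not given here. Symbols, coordinates and exon lengths came from GENCODE M21 (GRCm38), which matched 42462 of 43629 identifiers; the counting may have used another annotation. Identifiers without a symbol held 0.133 to 0.158% of a library's counts and stayed in the tests. Promoters came from RefSeq on GRCm38.p6.

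The main test was edgeR 4.0.16 (R 4.3.3) across all genes: TMM scaling, filterByExpr, the quasi-likelihood test, two-sided, with p adjusted by Benjamini-Hochberg over 15241 genes, at a threshold of 0.05. All adjusted p-values of genes come from such fits. SE is the absolute log2 fold change over the square root of F. CPM uses TMM-scaled totals, and log2 CPM a prior count of 2. For the relative fits, library sizes were replaced by the geometric mean of the other 7 tested members' counts plus 0.5. Tests were run on simulated counts, drawn independently for each gene at a fixed dispersion, and the outcome is not reported here. No pair of libraries of a group agreed within sampling noise (chi-square of at least 7.4 per gene), so all were kept. The labels do not name separate cultures, so p-values reflect only sample-to-sample spread, possibly technical, and the floor of 3 counts covers counting error only.

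Alternatives were other scalings (DESeq2 1.42.0 size factors, library totals, totals without the genes called higher), filters, DESeq2, limma-voom (limma 3.58.1), a fold threshold of 1.2, the replicate number as a block, other prior counts, and each library or member left out. The members, the other 18 gene lists and the tests were chosen with earlier results of these data known. Genes named are the members, up to 3 of each list with the smallest p, its most abundant gene that did not pass, and the 10 most alike in deviations at a mean log2 CPM of at least 3; others were chosen after their values were seen. Some genes that this rule names are not reported here.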

Additional observations from a re-analysis of the deposited data

Results flagged for a closer look

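A library was called apart when its gap to the nearest other library of its group exceeded Dixon's 95% critical share of the group's range. Of 82 groups of 6 checked, 5 held such a library, and chance alone gives about 1 in 20. Sox9 stood at 77.8 CPM in Control 5, against 47.1 to 57.3 CPM in the other Control libraries, and its level there remained below all IFNG libraries. The ratio of Slc1a3 to Slc1a2 counts was 3.36 in IFNG 5, against 1.92 to 2.41 in the other IFNG libraries. Glul, relative to the mean of the tested members, stood at 1.54 in IFNG 2 on the log2 scale, against 1.18 to 1.3 in the other IFNG libraries. The summed level of connexin and pannexin genes was 218 CPM in IFNG 5, against 171 to 183 CPM in the other IFNG libraries. The summed level of ependymal and choroid plexus markers was 15.4 CPM in Control 4, against 19 to 20.8 CPM in the other Control libraries.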

How the results depend on the processing

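No member changed direction: over 168 values of the 8 log2 fold changes under the alternatives, 160 kept their side of the threshold and 8, all of Aqp4 or Ntsr2, lost the call. With each library left out, 6 to 8 members, 1924 to 2332 of all genes higher and 1047 to 1699 lower were called. Against a fold change of 1.2, 5 members were called higher, and 458 of all genes were called lower. On totals without the genes called higher, which move the median of all genes to 0.10, 750 genes were called lower and 79.8% of calls were higher, against 59.4% with TMM scaling and 51.3% on library totals; all 8 members passed there. The one-factor departure ran from 0.414 to 0.516 over 27 alternatives; other scalings cancel in it by construction, and its p was the lowest each design allows, so these p-values say nothing about stability. Without Control 4 and IFNG 5 together, 8 members passed, where 2209 of 15237 genes tested were called higher and 1417 lower. The one-factor departure was then 0.471 (exact permutation p = 0.00794, the smallest that design allows). Relative to the others, 5 to 7 members were called over 17 alternatives, where 79.4 to 84.7% of all genes were called in the fits reported; with no filter Slc1a2 and Sox9 were lost. Over the other 18 lists, 67 of 756 counts moved by more than 1.5 times, 63 of them counts of 2 or fewer and 4 of them the count of neuronal markers that fell. Same-numbered libraries deviated together weakly at most, with correlations of -0.000964 to 0.124 and 2 of 6 IFNG libraries closest to their own number. The highest correlation lay above the limit of 0.1 set for pairing. The numbers were not taken as pairs in the main fit, and a fit with them as a block is given next. With the replicate block, 2114 genes were higher and 1563 lower, 8 members passed, 7 were called relative to the others, and the one-factor departure of 0.486 had an exact permutation p = 0.0312, the smallest that exchanges within pairs allow. Gjb6 and S100b did not pass the filter on low counts.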
